A study of Homo sapiens with 9 samples.

Results

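The genes described are 10 tetraspanins found on B cells or on blood cells more widely: CD9, CD37, CD53, CD63, CD82, CD151, TSPAN3, TSPAN13, TSPAN14 and TSPAN33. They were chosen by gene symbol, and all 10 were present among the 16586 genes of the table. The list was drawn up with earlier group differences of these same libraries in view, so the calls below describe these libraries and are no independent evidence. CD9 was already known to be higher in the rescue than in wild type, and that difference is given as a description with no test. RNA-seq was done on Z138, an established cell line of mantle cell lymphoma. Most cases of this B cell cancer express the transcription factor SOX11. The 3 genotypes were SOX11KO+SOX11Rescue (knockout cells given SOX11 again, called the rescue), SOX11KO (the knockout) and WT (wild-type Z138), with 3 libraries each and 1 of each in every labelled batch. All cells were grown in the same medium. The labels do not say whether an edited line is 1 clone, where SOX11 was cut, what drives the returned SOX11 or whether replicates were separate cultures. The p-values therefore measure the spread between these libraries, which may be technical, and effects of a clone cannot be told apart from those of SOX11.

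Tetraspanins are small proteins that cross the membrane several times and carry a large outer loop. They bind one another and other membrane proteins, such as integrins and MHC molecules, and gather them into patches of membrane. Some sit mostly on the cell surface, others in endosomes and in the vesicles that cells release, and a subfamily that includes TSPAN14 and TSPAN33 escorts the protease ADAM10 to the surface.

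Values are normalized counts recovered from the deposited log2 values, as mean ± SD with n = 3 libraries per group unless each library is given. Differences in log2 units are on the deposited scale, which compresses them more at lower levels. Equal differences of 2 genes on it can therefore stand for unequal ratios of counts. Estimated depth was 30800000 to 40700000 reads per library. SOX11 itself stood at 13127 ± 627 normalized counts in the rescue, 1033 ± 262 in the knockout and 3549 ± 474 in wild type, so the transcript was lowered in the knockout without being removed, and the rescue held 3.70-fold more of it than wild type. The 5 B cell markers summed to 1283 to 1475 CPM (a gene's share of its library, scaled to a fixed total) in the rescue, 1202 to 1331 CPM in the knockout and 1229 to 1438 CPM in wild type. PAX5, a B cell transcription factor, was called higher in the rescue (12363 ± 2230 normalized counts) than in the knockout (7474 ± 1867; adjusted p = 0.0231). Plasma cell markers summed to 2135 to 2491 CPM in the rescue, 2914 to 3119 CPM in the knockout and 2272 to 2529 CPM in wild type. That sum was carried by JCHAIN, at 1769 CPM in the rescue, 2494 CPM in the knockout and 1864 CPM in wild type. JCHAIN and XBP1 were called lower in the rescue than in the knockout (adjusted p = 0.00131 and 1.22e-04), IRF4 was called higher (adjusted p = 0.0266), and SDC1 and PRDM1 were not called. In the knockout against wild type JCHAIN was called higher (adjusted p = 0.00661) and IRF4 lower (adjusted p = 0.0462). In the rescue against wild type XBP1 was called lower (adjusted p = 0.00986), and the other 4 plasma cell markers were not called. The part of these markers in the tetraspanin values was not tested. Epithelial or stromal markers summed to 21.8 to 27.6 CPM in the rescue, 29.6 to 37.6 CPM in the knockout and 27.2 to 37.9 CPM in wild type. COL1A1 carried that sum, at 22.4 CPM in the rescue, 31.9 CPM in the knockout and 31.5 CPM in wild type. It was called lower in the rescue than in the knockout (adjusted p = 0.0244). Of the genes listed and present in the table, the 7 T and NK cell markers held 15.4 to 16.6 CPM in the rescue, 17.7 to 21.4 CPM in the knockout and 10.99 to 14.7 CPM in wild type, the 4 myeloid markers at most 1.62 CPM in any library and the 2 megakaryocyte markers at most 0.623 CPM. CD3E, a T cell marker, was called higher than in wild type in the knockout (adjusted p = 0.00871) and in the rescue (adjusted p = 0.0287). NKG7 lay near the filter, at 0.818 CPM in the rescue, 1.22 CPM in the knockout and 0.357 CPM in wild type, and is given without a test.

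CD9, CD37 and TSPAN14 were higher in the rescue than in the knockout. They were 3 of 7 members called higher (limma, adjusted p under 0.05 over all genes), with none called lower. Over all 11542 genes tested, 22.1% were called in that comparison, 11.5% higher and 10.7% lower. TSPAN33 also passed the filter, but only through its level in the rescue, so its differences are given without a test, and CD82 and TSPAN13 were too low to be tested. In the knockout against wild type, 0 of the 7 were called, where 12.7% of all genes were called, 5.36% higher and 7.37% lower. With the replicate number as a block, a fit that the shared batches allow, 2 were called there, CD37 lower and CD53 higher, among 2481 genes where the fit without it called 1470. Without the block, CD37 alone had an interval of the difference that lay on 1 side of 0. Whether the members' differences in these comparisons differ from each other was not tested. In RNA from whole cultures, a smaller share of cells with a transcript and less of it in each cell cannot be told apart.

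For CD9 and TSPAN33, the members with the largest ratios of the rescue's mean to those of the other groups, stretches of the gene's strand just before an annotated RefSeq start are shown (build GRCh38.p14, 250 bases each, with no annotated GENCODE exon in them). The CD9 stretch is chr12:6225889-6226138, before an internal start of the gene (the stretches before its other 3 starts hold exon bases and 0 matches), and the TSPAN33 stretch is chr7:129144457-129144706. Capitals mark a match to ACAAAG on either strand, a short form of the motif bound by SOX factors.
CD9: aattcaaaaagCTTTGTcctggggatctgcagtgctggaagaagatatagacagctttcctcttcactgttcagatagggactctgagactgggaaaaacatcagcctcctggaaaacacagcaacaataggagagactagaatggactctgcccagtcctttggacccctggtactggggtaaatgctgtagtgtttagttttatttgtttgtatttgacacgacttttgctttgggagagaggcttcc
TSPAN33: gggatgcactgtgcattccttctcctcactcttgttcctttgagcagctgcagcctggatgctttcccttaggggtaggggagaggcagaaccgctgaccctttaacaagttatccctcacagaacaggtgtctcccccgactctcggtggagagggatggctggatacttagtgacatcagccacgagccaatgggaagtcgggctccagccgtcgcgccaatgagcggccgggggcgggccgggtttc
ACAAAG and ACAATG were searched on both strands in the 250 bases before each start. The CD9 stretch held 1 match to ACAAAG, on the strand opposite to the gene, whose far end lay 239 bases before the start, and the TSPAN33 stretch held 0 matches. The table listed 20 starts for 7 of the members, among which 4 stretches held a match, and 21.2% of all 35116 stretches held one. A match is a run of letters and not a binding site.

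CD9, a surface tetraspanin of several blood lineages that takes part in cell adhesion and migration, had the widest range of group means among the members. CD9 (ENSG00000010278.14, chromosome 12, 6199715 to 6238271, plus strand, GRCh38) had 1416, 1466 and 1736 normalized counts in the rescue libraries, against 489, 495 and 633 in the knockout libraries and 542, 514 and 670 in wild type. The 3 rescue libraries stood far above the other 6, which overlapped one another. The rescue was 2.86-fold above the knockout, a difference of 0.92 on the deposited log2 scale (95% interval 0.75 to 1.09, limma adjusted p = 1.44e-05). Within the batches the differences were 0.91, 0.93 and 0.92, so all 3 pairs gave nearly the same value. The rescue was also 2.68-fold above wild type, by 0.83, 0.91 and 0.88 log2 units within the batches. The knockout differed from wild type by -0.05 log2 units (interval -0.22 to 0.13, adjusted p = 0.754), a difference smaller than the spread between libraries.

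CD37 is restricted to leukocytes, is abundant on mature B cells and is a target of therapeutic antibodies in B cell lymphoma. CD37 (ENSG00000104894.12, chromosome 19, 49335171 to 49343335, plus strand) had 410.3, 498 and 557 normalized counts in the rescue, against 221, 252 and 281 in the knockout and 273, 448 and 375 in wild type. The rescue and the knockout did not overlap, while wild type lay between them and overlapped both. The rescue was 1.94-fold above the knockout, by 0.41 log2 units (interval 0.23 to 0.59, adjusted p = 0.00455), and within the batches the differences were 0.36, 0.42 and 0.45. The call was lost without batch 3 (adjusted p = 0.0775).

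In the knockout against wild type CD37 differed by -0.21 log2 units (interval -0.39 to -0.03, adjusted p = 0.123). With the replicate number as a block the same difference was called (adjusted p = 0.0229), as it was without wild-type replicate 1 (adjusted p = 0.0371). CD37 was lower in the knockout library of each batch, with differences of -0.11, -0.35 and -0.17 log2 units. The rescue against wild type, 0.20 log2 units (interval 0.02 to 0.38), did not pass (adjusted p = 0.254).

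CD37 overlaps TEAD2, a transcription factor gene on the opposite strand, and 12 exon bases of the coding transcripts of CD37 lie in exons of TEAD2. TEAD2 stood at 78.002 ± 9.65 normalized counts in the rescue, 1.11 ± 0.467 in the knockout and 2.90 ± 2.57 in wild type. By mean, both genes were highest in the rescue and lowest in the knockout. The labels do not say which libraries were stranded, and the part of TEAD2 reads in the CD37 value was not tested. CD37, CD63, CD151, TSPAN3 and TSPAN14 also share 41 to 264 exon bases with noncoding genes on the opposite strand that are not analysed here, so their values are uncertain to that extent.

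TSPAN14 and TSPAN33 belong to the subfamily that binds ADAM10, and were measured at very different levels. TSPAN14 (ENSG00000108219.15, chromosome 10, 80454166 to 80533123, plus strand) had 3247 normalized counts in rescue library 1, 2824 in library 2 and 3148 in library 3. Its knockout libraries had 2284, 1851 and 2314 and its wild-type libraries 2801, 1886 and 2501. The rescue overlapped neither other group, and batch 2 was the lowest library of each group. The rescue was 1.43-fold above the knockout, by 0.41 log2 units (interval 0.18 to 0.64, adjusted p = 0.0168), with 0.41, 0.47 and 0.35 within the batches. This call was lost without rescue replicate 1 (adjusted p = 0.0569) or 3 (0.0573), without knockout replicate 2 (0.0631) and without batch 1 (0.075) or batch 3 (0.129).

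Against wild type the rescue held 1.28-fold more TSPAN14, 0.30 log2 units (interval 0.07 to 0.53, adjusted p = 0.174). That difference was called with the replicate block (adjusted p = 0.00903). Within the batches it was 0.17, 0.45 and 0.27 log2 units, in 1 direction each time. The knockout against wild type gave -0.11 log2 units (interval -0.34 to 0.12, adjusted p = 0.549).

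TSPAN33, known from red cell precursors and from activated B cells, was the faintest member that passed the filter. TSPAN33 (ENSG00000158457.6, chromosome 7, 129144892 to 129169697, plus strand) had 43.6, 52.6 and 45.1 normalized counts in the rescue, against 5.56, 6.86 and 23.4 in the knockout and 8.96, 17.8 and 7.78 in wild type. The rescue libraries stood clear of the other 6, among which knockout library 3 was the highest. The ratio of means was 3.95 for the rescue over the knockout and 4.09 over wild type. On the deposited log2 scale, which compresses low values, both differences were 0.26. TSPAN33 passed the filter of 1 CPM in 3 libraries only because its 3 rescue libraries did, so it had to be higher there, and no test is given.

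**Figure D1:**
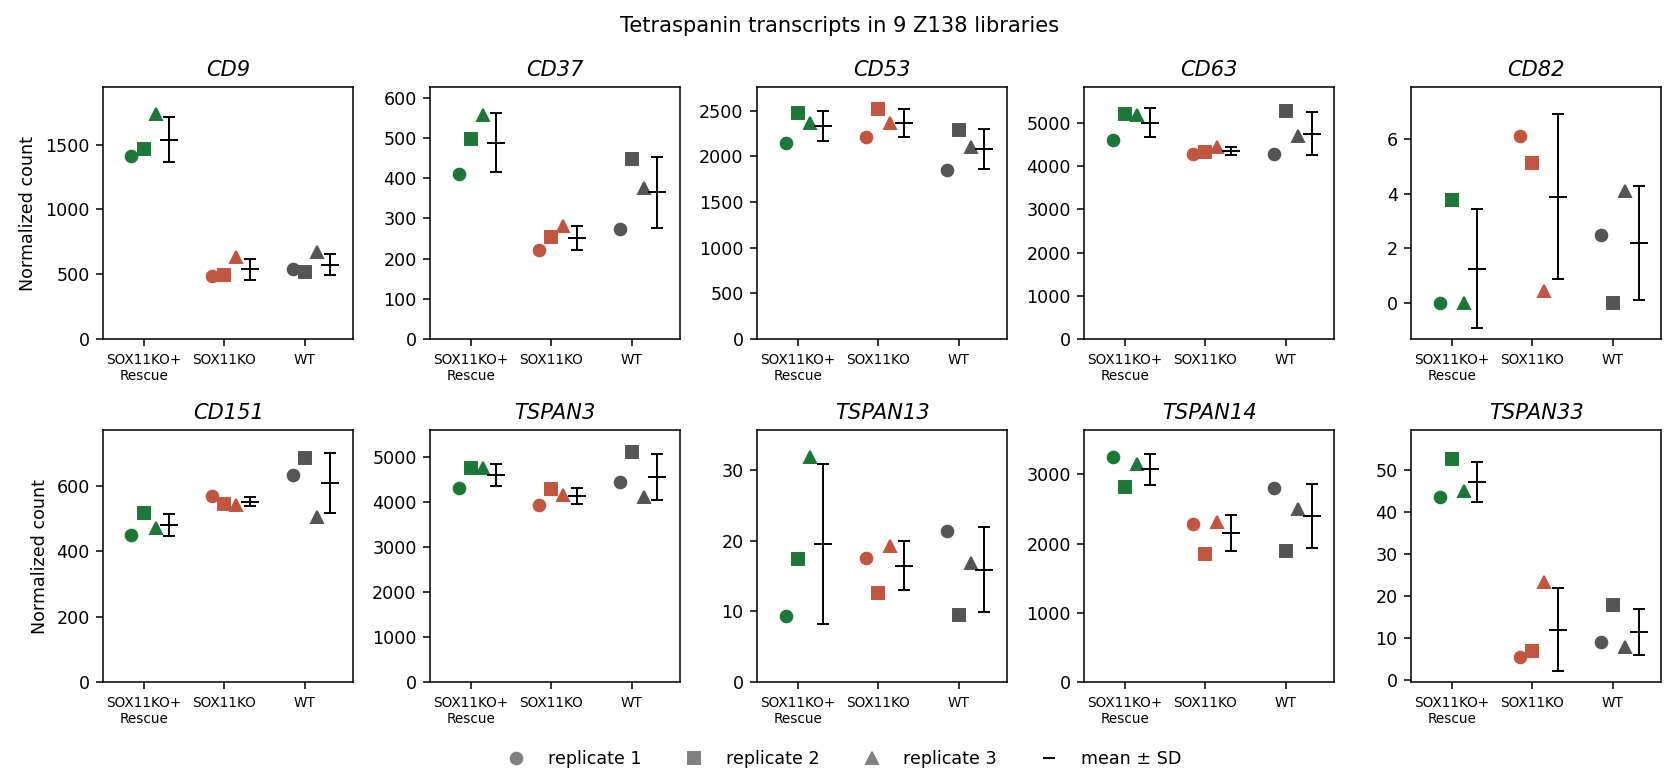
Normalized counts (linear axes, 1 panel per gene) of the 10 tetraspanins in each library, by group on the x axis, with marker shape for the replicate number and mean ± SD (n = 3) beside the points. The rescue points of CD9 (1416 to 1736) and TSPAN33 (43.6 to 52.6) lie above all points of the other groups, while CD53 and CD63 overlap between the rescue and wild type.

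CD63, CD53, TSPAN3 and CD151 were called in 0 of the 3 comparisons. CD63 (ENSG00000135404.11, chromosome 12, 55725323 to 55729707, minus strand), which marks late endosomes, lysosomes and released vesicles, had 4612, 5199 and 5194 normalized counts in the rescue, against 4270.0, 4332 and 4452 in the knockout and 4279, 5282 and 4696 in wild type. The rescue and the knockout did not overlap, and wild type overlapped both. CD63 was 1.15-fold higher in the rescue than in the knockout, by 0.17 log2 units (interval 0.02 to 0.32, adjusted p = 0.0986). It was called with the replicate block (adjusted p = 0.0249), when the rescue and the knockout alone were fitted (adjusted p = 0.0408) and without wild-type replicate 2 (adjusted p = 0.0418).

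CD53 (ENSG00000143119.14, chromosome 1, 110871188 to 110899928, plus strand), a tetraspanin of all leukocytes that supports B cell development in mice, had 2150.5, 2470 and 2366 normalized counts in the rescue, against 2210, 2517 and 2369 in the knockout and 1852, 2288 and 2099 in wild type. The rescue and the knockout had nearly the same values in each batch, and both overlapped wild type. CD53 was the 1 tested member with a positive log2 difference in the knockout against wild type, 0.14 (interval -0.01 to 0.30, adjusted p = 0.214), a difference called with the replicate block (adjusted p = 0.0321). The rescue differed from the knockout by -0.02 log2 units, with an interval of -0.17 to 0.13.

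TSPAN3 (ENSG00000140391.15, chromosome 15, 77041404 to 77083984, minus strand), known from mouse models of acute myeloid leukaemia, had 4306, 4745 and 4738 normalized counts in the rescue, against 3930, 4294 and 4153 in the knockout and 4442, 5113 and 4112 in wild type. Every rescue library exceeded every knockout library, by little: 0.13 log2 units, with an interval of -0.02 to 0.29 (adjusted p = 0.204). CD151 (ENSG00000177697.19, chromosome 11, 832843 to 839831, plus strand), a partner of laminin-binding integrins, had 449, 516 and 472 normalized counts in the rescue, against 568, 545 and 542 in the knockout and 633, 684 and 505 in wild type. CD151 was the 1 tested member besides CD53 with a lower mean in the rescue than in the knockout, -0.10 log2 units (interval -0.24 to 0.04, adjusted p = 0.287). Its rescue libraries lay below the knockout libraries with no overlap and overlapped wild type, where the difference was -0.17 (interval -0.31 to -0.03, adjusted p = 0.197).

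On the opposite strand CD151 shares 146 exon bases of its coding transcripts with POLR2L, an RNA polymerase subunit gene. POLR2L held 2183 ± 276 normalized counts in the rescue, 2393 ± 149 in the knockout and 2432 ± 170.0 in wild type. Its level exceeded that of CD151 in all 3 groups, and its part in the CD151 value was not tested.

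CD82 was near or under the level of detection, and TSPAN13 was above it but too low for the filter. CD82 (ENSG00000085117.12, chromosome 11, 44564427 to 44620363, plus strand), known as a suppressor of metastasis, had 0, 3.76 and 0 normalized counts in the rescue, against 6.09, 5.13 and 0.453 in the knockout and 2.48, 0 and 4.11 in wild type. A floor of 3 reads was worth 2.58 to 3.40 normalized counts, so no difference in CD82 could be read at this depth. TSPAN13 (ENSG00000106537.8, chromosome 7, 16753535 to 16784536, plus strand) had 9.38, 17.4 and 31.8 normalized counts in the rescue, 17.6, 12.6 and 19.2 in the knockout and 21.4, 9.42 and 16.8 in wild type. The 3 groups overlapped, and 0 of the 9 libraries reached 1 CPM for either gene.

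The plot of differences sets the 8 members that passed the filter side by side in the 3 comparisons, which share libraries pairwise and so are not independent of one another. Without TSPAN33 the median difference of the 7 members was -0.11 log2 units for the knockout against wild type and 0.17 for the rescue against the knockout. Over all tested genes these medians were 0.00 and -0.01. No median is given for the rescue against wild type, where the difference of CD9 was already known. In the rescue against wild type, with CD9 and TSPAN33 left out as given without a test, 0 of the other 6 were called, where 4.07% of all genes were called, 2.3% higher and 1.78% lower. With the replicate block TSPAN14 was called among them, as given above. Groups did not overlap for 0 of the 7 members in the knockout against wild type (29.5% of all genes), for 6 of the 7 in the rescue against the knockout (41.8%) and, of the 6, for TSPAN14 in the rescue against wild type (20.8%).

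**Figure D2:**
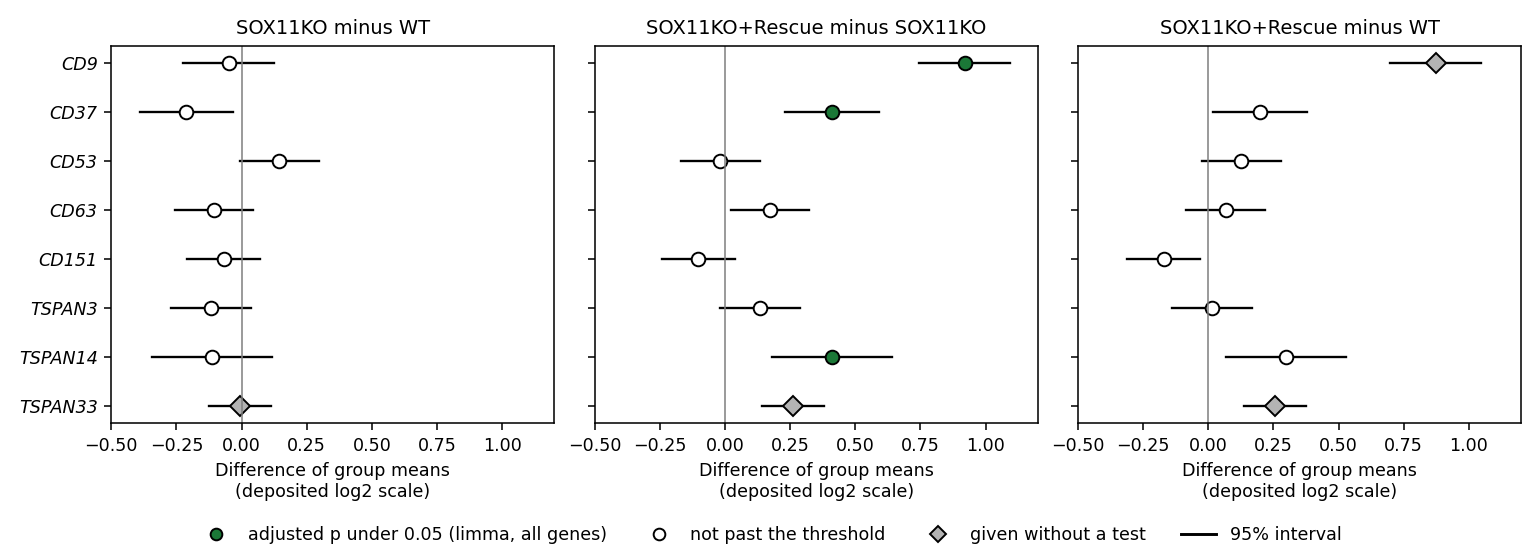
Difference of group means on the deposited log2 scale (x axis) with its 95% interval for the 8 tetraspanins that passed the filter (y axis), in 3 panels, 1 per comparison. Green circles passed an adjusted p of 0.05 in the fit of all genes, 0 for the knockout against wild type (12.7% of all genes) and 3 for the rescue against the knockout (22.1%), with CD9 farthest from 0 at 0.92, and grey diamonds mark differences given without a test. The diamonds are TSPAN33 in all panels and CD9 in the rescue against wild type. Their intervals are drawn too, but are not to be read as a test.

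Levels were compared between genes per kilobase, using the median length of the principal GENCODE transcripts. In the rescue the order was CD63 at 4878 ± 329 normalized counts per kilobase, TSPAN14 at 2227 ± 161, CD53 at 1515 ± 106, CD9 at 1075 ± 120.2, TSPAN3 at 711 ± 38.9, CD37 at 386 ± 58.5, CD151 at 309.9 ± 22.0, TSPAN33 at 25.3 ± 2.57, TSPAN13 at 9.32 ± 5.42 and CD82 at 0.548 ± 0.949. Of the neighbours in that order, CD37 and CD151 overlapped. In the knockout CD63 at 4243 ± 90.2 again came first, followed by TSPAN14 at 1558 ± 188, CD53 at 1539 ± 99.7, TSPAN3 at 638 ± 28.4, CD9 at 376 ± 57.2, CD151 at 357 ± 9.30, CD37 at 199 ± 23.8, TSPAN13 at 7.86 ± 1.64, TSPAN33 at 6.40 ± 5.33 and CD82 at 1.70 ± 1.32. TSPAN14 and CD53 overlapped there, as did CD9 and CD151, and TSPAN13 and TSPAN33. In wild type CD63 stood at 4634 ± 491, TSPAN14 at 1736 ± 338, CD53 at 1353 ± 142, TSPAN3 at 704 ± 78.9, CD9 at 402 ± 58.3, CD151 at 393 ± 59.5, CD37 at 289 ± 69.9, TSPAN13 at 7.59 ± 2.89, TSPAN33 at 6.18 ± 2.94 and CD82 at 0.960 ± 0.904, with the same overlaps as in the knockout and that of CD151 and CD37 besides. CD9 thus stood above TSPAN3, with no overlap, in the rescue, and below it in the knockout and wild type. The place of TSPAN14 depends on the transcript used: its principal transcripts run from 1095 to 16183 bases, and the table does not say which of them the cells make.

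Among the 23 other tetraspanins listed, 16 were in the table and 6 passed the filter. CD81, found on most blood cells, was the most abundant tetraspanin per kilobase. It made up 42.3% ± 0.964 of the family total in the rescue, 53.7% ± 1.44 in the knockout and 49.0% ± 2.71 in wild type. The 10 members together made up 53.6% ± 1.11 of that total in the rescue, 42.8% ± 1.19 in the knockout and 47.1% ± 2.59 in wild type. Per kilobase the members summed to 11136 ± 543 in the rescue, 8926 ± 271 in the knockout and 9526 ± 427 in wild type. CD81 stood at 8793 ± 554, 11208 ± 575 and 9918 ± 672 in the same order, so the shares mix both changes. The members' sum includes CD9 and TSPAN33, and depends on the transcript length taken for TSPAN14. The share of CD9 was 5.17% ± 0.311 in the rescue, 1.80% ± 0.234 in the knockout and 1.99% ± 0.308 in wild type.

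Of the 6 other tetraspanins tested, 1 was called higher and 1 lower in the rescue against the knockout, a share near the 22.1% of all genes called there. CD81 fell 1.27-fold, to 13365 ± 842 in the rescue against 17037 ± 874 in the knockout (adjusted p = 0.00353). TSPAN2 rose to 201 ± 30.2 in the rescue against 118 ± 23.8 in the knockout (adjusted p = 0.0168), and was 2.04-fold lower in the knockout than in wild type, where it held 241 ± 25.7 (adjusted p = 0.00387). TSPAN17, which like TSPAN14 and TSPAN33 binds ADAM10, fell to 251 ± 40.6 in the knockout against 392 ± 90.5 in wild type (adjusted p = 0.0464). TSPAN2 and TSPAN17 were the 2 of the 6 called in the knockout against wild type, where 12.7% of all genes were called, 7.37% lower. None of the 6 was called in the rescue against wild type, where 4.07% of all genes were called. These comparisons share the knockout or the wild-type libraries.

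**Figure D3:**
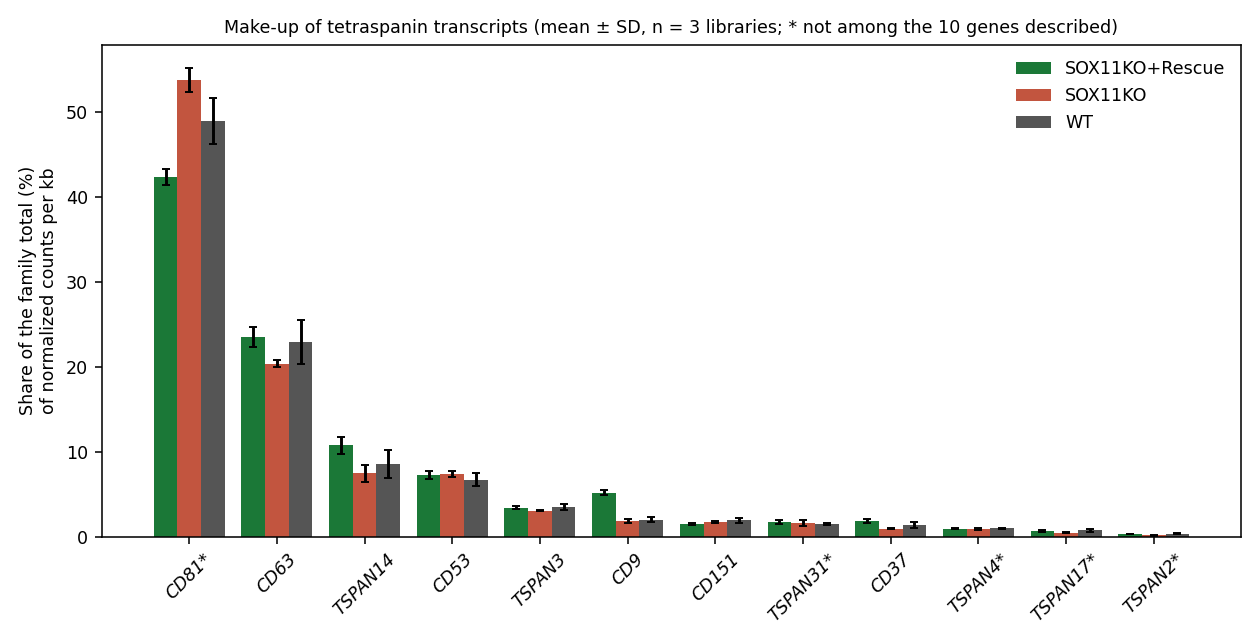
Share of each tetraspanin in the family total of normalized counts per kilobase (y axis, percent; bars are means and error bars SD over 3 libraries) for the 12 most abundant tetraspanins in wild type, in the rescue, the knockout and wild type. The CD9 bar is highest in the rescue at 5.17%, against 1.80% in the knockout and 1.99% in wild type, and the CD81 bar is lowest in the rescue at 42.3%.

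Proteins that tetraspanins bind were described beside them. Against the knockout, the rescue had 3 of the 11 tested partner genes called higher and 5 lower (median -0.22 log2 units, against -0.01 over all genes). For the knockout against wild type these counts were 3 and 0 (median 0.23, against 0.00 over all genes), and for the rescue against wild type 1 and 1 (ITGB1 higher, ITGA4 lower). Over all genes tested, 11.5% were called higher and 10.7% lower in the rescue against the knockout. The shares were 5.36% and 7.37% in the knockout against wild type, and 2.3% and 1.78% in the rescue against wild type. IGSF8, a direct partner of CD9, rose 1.31-fold in the rescue against the knockout (adjusted p = 0.00546), HBEGF, a growth factor whose precursor binds CD9, 1.96-fold (adjusted p = 0.00955) and CLEC7A, a receptor that CD37 stabilizes in mice, 3.04-fold (adjusted p = 0.0151). The integrin chain ITGA4 fell 1.56-fold (adjusted p = 1.33e-04), HLA-DRB1 1.75-fold (adjusted p = 0.00193) and IFITM1, a partner of CD81, 1.47-fold (adjusted p = 0.0102). ITGA3 and HLA-DMB were the other 2 lower genes and, like ITGB1, were named after their values were seen. In the knockout against wild type the 3 higher genes were ITGA4 at 1.202-fold, HLA-DRB1 at 1.51-fold and IFITM1 at 1.42-fold. HLA-DRB1 shares reads with close paralogs, so its value is uncertain. HLA-DRA, the other chain of HLA-DR and on the same list, was too low to be tested. It held 9.63 ± 10.4 normalized counts in the rescue, 9.14 ± 15.8 in the knockout and 13.8 ± 8.89 in wild type.

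ADAM10, the protease that TSPAN14 and TSPAN33 escort, held 5292 ± 61.4 normalized counts in the rescue, 5216 ± 150.2 in the knockout and 5140 ± 193 in wild type and was called in 0 of the 3 comparisons. Among the 6 genes tested on the list of ADAM10 and its substrates, 3 were called lower in the rescue against the knockout, where 10.7% of all genes were called lower: NOTCH2 by 1.35-fold (adjusted p = 4.16e-04), FCER2, the low-affinity IgE receptor CD23, by 2.31-fold (adjusted p = 1.06e-04), and TNFRSF13B, the receptor TACI, by 1.42-fold (adjusted p = 0.00585). NOTCH2 and FCER2 were called higher in the knockout against wild type, by 1.29-fold and 1.63-fold, where 5.36% of all genes were called higher. The list's median was -0.33 log2 units in the rescue against the knockout and 0.12 in the knockout against wild type. The rescue against wild type had 0 of the 6 called, where 4.07% of all genes were called, and a median of -0.13. Of the 13 tested endosome and vesicle genes, which share the compartment of CD63, SDCBP was the 1 called in any comparison. Over all genes, 22.1% were called in the rescue against the knockout and 12.7% in the knockout against wild type, so the list did not stand out. SDCBP encodes syntenin, an adaptor that binds CD63, and stood at 1494 ± 77.4 in the rescue, 1054 ± 10.7 in the knockout and 1438 ± 98.4 in wild type (adjusted p = 0.00106 for the rescue against the knockout and 0.00356 for the knockout against wild type).

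The genes whose 9 log2 values lay nearest to those of CD9 and TSPAN14, the members with the widest range of group means, were sought among the other 11541 tested genes by the root mean square difference after centring each gene on its own mean. For CD9 they were SATB1, a chromatin organizer of lymphocytes, at 0.131 log2 units, LCK, a kinase of lymphocyte signalling, at 0.136, and RAG2, a subunit of the antigen receptor recombinase, at 0.148. SATB1 had 782 ± 73.9 normalized counts in the rescue, 310 ± 40.9 in the knockout and 328 ± 63.9 in wild type. LCK had 1553 ± 64.1 in the rescue, 695 ± 48.4 in the knockout and 735 ± 65.7 in wild type, and RAG2 had 105 ± 39.8 in the rescue, 0 in the 3 knockout libraries and 0.859 ± 1.49 in wild type. Like TSPAN33, RAG2 passed the filter only through its level in the rescue. Its nearness to CD9 holds on the deposited scale, which compresses low values. Ratios of rescue to wild-type counts were far apart, 122 for RAG2 and 2.68 for CD9. TSPAN14 barely exceeded CD37 in the range of group means, at 0.4098 against 0.4094 on the deposited log2 scale. The genes nearest to TSPAN14 were C18orf32 at 0.0415, TAPT1 at 0.0641 and ZNF664 at 0.0644 log2 units. ZNF664 had 7330.2 ± 417 normalized counts in the rescue, 4832 ± 442 in the knockout and 5702 ± 823 in wild type, with its lowest value of each group in batch 2, as for TSPAN14.

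**Figure D4:**
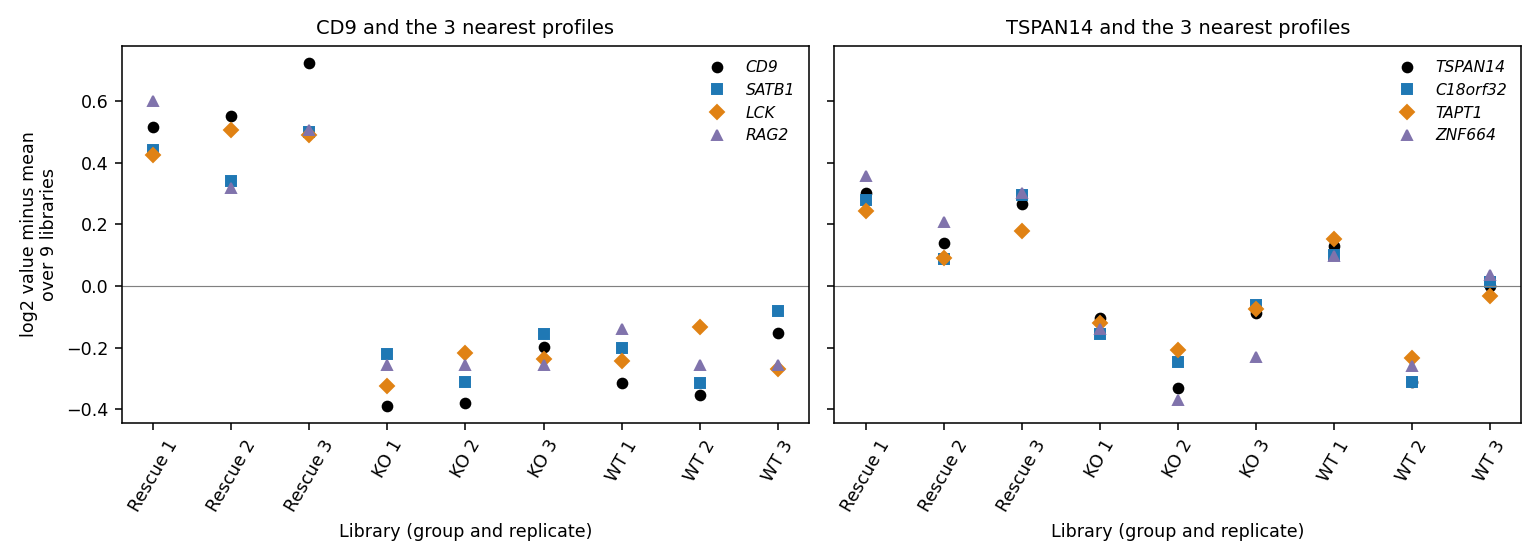
Deposited log2 value minus the gene's mean over 9 libraries (y axis) in each library (x axis) for CD9 and TSPAN14 (black circles) and the 3 genes with the nearest profiles (other markers). The CD9 panel has the rescue libraries of all 4 genes above 0 and the other 6 libraries below it, and in the TSPAN14 panel replicate 2 is the lowest black circle within each group.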

How the data were processed

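RNA of 9 Z138 libraries was sequenced on an Illumina NextSeq instrument, per the labels' protocols, which name an RNA kit and a stranded total RNA kit and paired or single reads without saying which library had which. The tools named in the submitters' processing notes are kallisto (0.46.1), Trimmomatic (0.40), DESeq2 (1.24.0), FastQC (0.11.9) and R (4.3.2), with build GRCh38.p13. The authors deposited log2 values that behave as variance-stabilized and not as log CPM, since all libraries share the lowest value 8.60. The transform was inverted with 2 to that value, 388, as its constant, which gave normalized counts. Low values of single-transcript genes were whole multiples (tolerance 0.05) of 1 step in 81.8% to 98.4% of cases per library, 10% by chance, and total over step gave the depth, an estimate. CPM is each library's share of normalized counts.

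Genes with at least 1 CPM in at least 3 libraries were tested (11542, with 5044 left out) with limma 3.58.1 in R 4.3.3, which was fitted to the deposited values of all 9 libraries with 1 mean per group, a trended prior variance and Benjamini-Hochberg adjustment over all tested genes. The fit was tested on simulated data. The members and lists were chosen with earlier results of these data known. An item of the marker and partner lists is not reported here, and counts, medians and sums leave it out. Named genes are the 10 members, SOX11, up to 6 called genes per list with the smallest adjusted p, and the 3 nearest profiles of the 2 members with the widest range, passing over pseudogenes and clone names. Genes singled out besides these, such as TEAD2, POLR2L and the members of lists given as levels, were chosen after their values were seen. Positions and lengths are from GENCODE release 29 on GRCh38.

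The replicate number equals the labelled batch, so it pairs libraries. Deviations of same-numbered libraries from their group means correlated at 0.187 to 0.51 across genes, and 9 of 9 libraries correlated best with their own number. The settings varied were a block for the replicate number, the filter (none, or 4 CPM), the scale (log2(CPM + 1) or log2(CPM + 0.1)), median centring, quantile normalization, a fit of the 2 groups alone, and each library or batch left out in turn. Figures were drawn with matplotlib 3.10.9.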

Additional observations from a re-analysis of the deposited data

How the results depend on the processing

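These counts of tetraspanins include TSPAN33, and CD9 in the rescue against wild type, which the results give without a test. The counts show how calls moved with the setting and are no evidence on those differences. With the replicate block, 2481 genes and 2 tetraspanins (CD37 and CD53) were called in the knockout against wild type, where the fit without it called 1470 and 0, and 930 genes in the rescue against wild type, where it had called 470. The calls of members that the block added are given with the results, and it ended none. In the rescue against wild type the fit as described counted 2, CD9 and TSPAN33, both of them differences given without a test. With a filter of 4 CPM or on log2(CPM + 0.1) the count was 1. The filter removed TSPAN33, and on the other scale TSPAN33 left the count. TSPAN33 in the knockout against wild type, -0.00 log2 units, turned to 0.00105 on log2(CPM + 1) and to 0.0898 after quantile normalization, neither called. Of 189 values of single members under the 8 settings that kept all libraries, or all libraries of the groups compared, 181 kept their direction and their side of the threshold.

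When libraries or batches were left out, 574 to 1395 genes and 0 to 1 tetraspanins were called in the knockout against wild type (938 genes without knockout replicate 1, 575 without batch 1, 574 without batch 3). In the rescue against the knockout these counts were 993 to 2970 genes and 2 to 5 tetraspanins (1167 and 993 genes without batches 1 and 3, with 2 tetraspanins each). In the rescue against wild type they were 111 to 427 genes and 1 to 2 tetraspanins (251 and 230 genes without rescue replicate 2 or 3, and 146, 249 and 111 without batch 1, 2 or 3). The tetraspanin counts here again include the differences given without a test. The cause of the changes in these counts was not tested. CD9 stayed called against the knockout in all 12 such fits, at 0.86 to 0.98 log2 units. Values that turned sign were uncalled and near 0: CD9 (-0.1112 to 0.0121) and TSPAN33 (-0.08157 to 0.05133) in the knockout against wild type, CD53 (-0.05479 to 0.02578) in the rescue against the knockout, and TSPAN3 (-0.06623 to 0.08922) in the rescue against wild type. Depth limits CD82, TSPAN13 and TSPAN33, whose highest values were 6.09, 31.8 and 52.6 normalized counts.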
